A study of Homo sapiens with 2 samples.

Results

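The genes described here are MYC, its partner MAX and 42 nucleolar genes that transcribe, process and modify ribosomal RNA, chosen by symbol from lists of known function. The choice was made with earlier results of these data known. All 44 were found among the 60616 genes of the deposited tables, each in 1 row. Expression was measured by mRNA sequencing in the established tongue squamous carcinoma line HSC-3, with 1 library from cells given 0.1% DMSO, the vehicle, and 1 from cells given 1 µM FIN56. FIN56 exposure lasted 48 h, and no time is stated for DMSO. FIN56 triggers ferroptosis, in which peroxidized membrane lipids kill the cell. The study calls the concentration given to these cells sublethal. Without replicates, differences could not be tested and no p-values are given, and whatever else distinguished these cultures cannot be told apart from the effect of FIN56.

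Ribosomes are assembled in the nucleolus, around the tandem genes for ribosomal RNA. RNA polymerase I makes a long precursor, small nucleolar ribonucleoproteins (snoRNPs) guide its methylation and pseudouridylation, and large sets of assembly factors fold and cut it into the small and the large subunit. MYC, a basic helix-loop-helix leucine zipper factor, binds DNA as a pair with MAX and is known to drive genes for each of these steps, which makes nucleolar size a classical sign of MYC activity and of growth in carcinoma cells.

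The libraries held 70184517 (DMSO) and 73062209 (FIN56) expected counts, the read numbers that RSEM assigns to each gene. The squamous markers were abundant, with an FPKM of 1410 and 1352 for KRT14 and of 85.6 and 92.6 for TP63. The immune markers PTPRC and CD3E were at 0 counts in both libraries and LYZ at 1 and 0 counts. CD68, a lysosomal protein not limited to macrophages, had an FPKM of 57.3 after DMSO and 24.6 after FIN56, and its part in the results was not tested. Of the fibroblast and endothelial markers, COL1A1 had an FPKM of 4.25 and 2.19, and DCN, LUM, PDGFRB, PECAM1 and VWF were at 0.50 or below in both. In bulk RNA, fewer cells and less RNA per cell cannot be told apart, and every value below is relative to the rest of the mRNA, so a change in the total RNA of a cell would not show.

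The 44 genes as a whole were slightly higher in the FIN56 library, and 1 of them passed a threshold. Their median log2 ratio of FPKM (fragments scaled by effective gene length and library size), FIN56 over DMSO, was 0.26, against 0.03 over all 12638 genes whose FPKM reached 1 in each library, a set that holds all 44. The median ratio was 1.20, and the ratios ran from 0.799 for NPM1 to 1.57 for UTP15. A ratio of 1.5 or more was reached by UTP15 alone, 1 of 44 genes (2.27%), against 3.87% of all genes, and a ratio of 1/1.5 or less by 0 of 44, against 6.77%. Calls at this threshold were therefore no more frequent among the 44 than among all genes.

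The direction was more uniform than the size. An FPKM ratio above 1 was found for 37 of the 44 genes, against 53.5% of all genes. To set each gene against counting error, a 95% interval of the count ratio was computed from the expected counts, scaled by the library totals. This interval lay above 1 for 34 members (77.3%), against 38.0% of all genes, and below 1 for 6 members (13.6%), against 35.9%. The other 4 intervals included 1. An interval is narrower where counts are higher, and the median FPKM with DMSO was 34.8 for the members and 13.0 for all genes. The shares of intervals are therefore not compared at like depth. The intervals compare 2 libraries and say nothing of how far untreated cultures differ from each other. An FPKM at least 25% higher was seen for 17 members, against 15.8% of all genes, and one at least 20% lower for NPM1 alone, against 17.2%.

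In level the members spanned a wide range. The lowest FPKM in the DMSO library was 6.15 (BYSL), the median 34.8, and the highest 1242 (NPM1). NPM1 alone made up 37.1% of the summed FPKM of the 44 genes with DMSO and 29.0% with FIN56. The sum was 3347 after DMSO and 3420 after FIN56, a ratio of 1.02, and without NPM1 it was 2104 and 2427, a ratio of 1.15. The near-equal sums thus hold a lower NPM1 and a higher sum of the remaining genes.

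**Figure D1:**
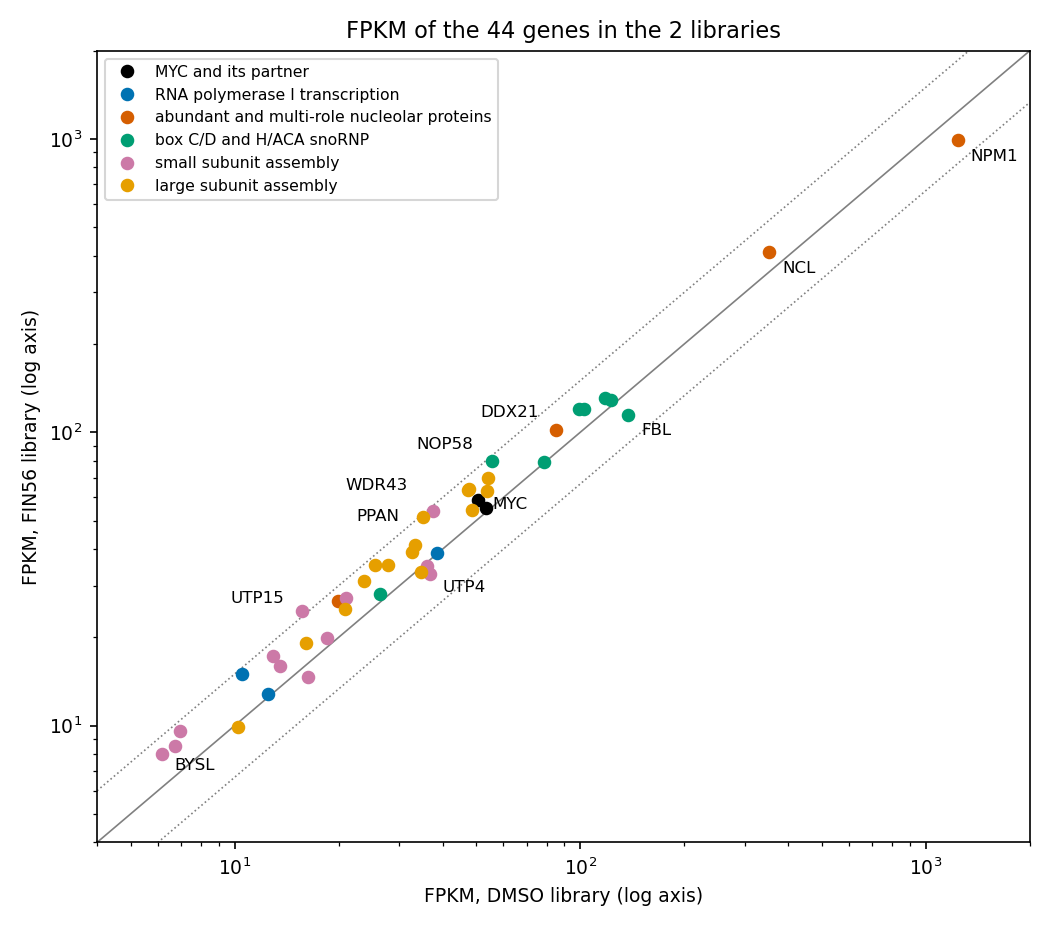
FPKM of the 44 genes in the FIN56 library (y) against the DMSO library (x), both on log axes, with 1 point per gene coloured by role. The solid line marks equal values and the dotted lines ratios of 1.5 and 1/1.5; UTP15 lies above the upper dotted line, and NPM1 and FBL are the points furthest below the solid line.

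MYC (ENSG00000136997) spans positions 127735434 to 127742951 of chromosome 8, plus strand, in GENCODE release 44 (GRCh38). FPKM values of 50.7 (DMSO) and 58.7 (FIN56) came from 7583 and 9034 expected counts. The ratio of 1.16 was under the threshold, and the counting interval of 1.11 to 1.18 lay above 1. MAX, which MYC needs to bind DNA, had an FPKM of 53.6 and 55.1, a ratio of 1.03, and a counting interval of 0.999 to 1.07 that included 1. Both partners were thus expressed at like levels per length, MYC slightly higher and MAX not distinguishable by counting error.

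Beside MYC and MAX, the other proteins of the network compete for MAX or for its relative MLX. The list held 11 genes, of which MYCN was at 0 counts in both libraries and MLXIPL at 3 and 1 counts. Of the 9 with an FPKM of at least 1, 6 had a ratio above 1 (66.7%, against 53.5% of all genes). MXD3, a MAX partner that represses MYC target genes and is known from proliferating cells, had the lowest ratio. FPKM values were 10.7 (DMSO) and 3.08 (FIN56), a ratio of 0.288. Expected counts of 909 and 305 gave a count ratio of 0.322, with a counting interval of 0.282 to 0.367. The other 8 passed no threshold, and MYCL had the highest ratio at 1.38, from FPKM values of 1.36 and 1.88. Thus 1 of the 9 was at 1/1.5 or less (11.1%, against 6.77% of all genes), and 0 reached 1.5 (against 3.87%).

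The 3 genes of ribosomal RNA transcription differed among themselves. POLR1B encodes the second-largest subunit of RNA polymerase I, and its FPKM was 10.5 after DMSO and 15.02 after FIN56, a ratio of 1.43. POLR1A, the largest subunit of the same enzyme, had an FPKM of 12.5 and 12.8, a ratio of 1.03. UBTF, the factor that loads the polymerase onto ribosomal DNA, had an FPKM of 38.5 and 38.7, a ratio of 1.00. Its count ratio was 0.975, and the counting interval of 0.946 to 1.01 included 1. By expected counts POLR1B stood at 1.31 (interval 1.24 to 1.37) and POLR1A at 1.04 (interval 1.01 to 1.08), so that these subunits differed by more than counting error in this pair of libraries.

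Of 18 further genes of the polymerase I machinery, 15 had a ratio above 1 (83.3%, against 53.5% of all genes), and 3 reached 1.5 (16.7%, against 3.87%). They were POLR1G, a subunit specific to this polymerase, RRN3, the initiation factor that makes the polymerase competent to start, and POLR2L, a small subunit shared with the other nuclear polymerases. POLR1G had the highest ratio of the list, 1.81, from FPKM values of 6.96 and 12.6. RRN3 had an FPKM of 13.8 and 22.8, a ratio of 1.66. By counts POLR2L stood at 1.48, under the threshold, which left 2 of 18 (11.1%, against 3.25% of all genes). POLR1D, shared with polymerase III, had the lowest ratio, 0.818, from FPKM values of 144 and 118. The median log2 ratio of these 18 genes was 0.25, against 0.03 over all genes.

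The abundant and multi-role nucleolar proteins included both the most abundant and the lowest member. NPM1, a histone chaperone that forms the granular part of the nucleolus, had an FPKM of 1242 after DMSO and 993 after FIN56. The FPKM ratio was 0.799. Expected counts of 104429 and 87556 gave a count ratio of 0.805, with a counting interval from 0.798 to 0.813. These counts were not whole numbers, as happens when reads also fit other copies of the gene, so that the value is uncertain in that respect.

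NCL, which encodes nucleolin, an RNA-binding protein of ribosomal RNA transcription and processing, went the other way. FPKM values were 353 (DMSO) and 412 (FIN56), a ratio of 1.17, and its interval of 1.16 to 1.18 came from whole counts of 58572 and 71326. DDX21, an RNA helicase that acts on polymerase I transcription and on snoRNA release, had an FPKM of 85.0 and 102, a ratio of 1.20. LYAR, a zinc finger protein of precursor processing, had the highest ratio of the group at 1.34, from FPKM values of 19.9 and 26.6. NPM1 was therefore the single gene of these 4 below 1.

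The snoRNP proteins form complexes of fixed make-up, and their mRNAs did not have 1 common ratio. Box C/D snoRNPs, which methylate ribose, contain FBL, NOP56 and NOP58, beside SNU13, which was not among the 44. FBL, the methyltransferase fibrillarin, had an FPKM of 138 after DMSO and 115 after FIN56, a ratio of 0.833 with a counting interval of 0.799 to 0.854. NOP56 had an FPKM of 118 and 131, a ratio of 1.11. NOP58, the paralog of NOP56 that sits beside it on the guide RNA, had an FPKM of 55.5 and 79.8, a ratio of 1.44. By counts the intervals of FBL, NOP56 (1.01 to 1.06) and NOP58 (1.27 to 1.35) did not overlap.

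Box H/ACA snoRNPs, which turn uridine into pseudouridine, were closer to equal. DKC1, the pseudouridine synthase dyskerin, had an FPKM of 78.4 and 79.1, a ratio of 1.01, and by counts it was below 1, at 0.956 with an interval of 0.932 to 0.981. NHP2 and GAR1 had FPKM ratios of 1.05 and 1.07, and NOP10, the smallest protein of the core, 1.17 from FPKM values of 103 and 120. NOLC1, a phosphoprotein that escorts both kinds of snoRNP, had an FPKM of 99.3 and 120, a ratio of 1.21. In all, 7 of these 8 genes had an FPKM ratio above 1 (87.5%, against 53.5% of all genes). Their median log2 ratio of 0.12 was lower than for the assembly factors of either subunit.

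Factors of the small subunit had the highest median log2 ratio of the 6 role groups, 0.36, with 9 of 12 genes above 1. Most act in the processome that folds the 5′ part of the precursor. UTP15 (ENSG00000164338), a WD-repeat protein of the complex that joins the precursor while it is being transcribed, was the 1 gene called. It spans positions 73565443 to 73583380 of chromosome 5, plus strand. FPKM values were 15.6 (DMSO) and 24.6 (FIN56), a ratio of 1.57. Expected counts of 2460 and 4075 gave a count ratio of 1.59, with a counting interval of 1.51 to 1.67. Centring the ratios within bins of GC content and transcript length gave 1.45, under the threshold, and rlog values gave 1.22.

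WDR43 and UTP4, the partners of UTP15 in the same complex among the 44 genes, differed in direction. They do not stand for the whole complex. WDR43 had the highest FPKM of the group with DMSO, 37.4, and 53.9 with FIN56, a ratio of 1.44. Its count ratio was 1.56 (interval 1.52 to 1.61). UTP4, another WD-repeat protein of that complex, had the lowest ratio of the group (0.895). Its FPKM values were 36.8 and 33.0, and the interval of 0.846 to 0.917 lay below 1. The distance between UTP15 and UTP4 was larger than the counting error of either.

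UTP20, a very large scaffold protein, had an FPKM of 6.94 and 9.59, a ratio of 1.38. RRP9, the protein specific to the U3 snoRNP, which opens the cleavage steps, had a ratio of 1.34, BYSL 1.304, PNO1 1.29, the helicase DDX10 1.27, RRP12 1.18 and NOP14 1.07. BYSL and PNO1 act late, on the particle that leaves for the cytoplasm. NOB1, the nuclease that makes the final cut of 18S ribosomal RNA there, had a ratio of 0.974 and an interval of 0.916 to 1.00 that included 1. NOC4L, which pairs with NOP14, had a ratio of 0.898 with an interval of 0.835 to 0.961.

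Factors of the large subunit made up the largest group, and most were higher with FIN56. Of the 15 genes, 13 had a ratio above 1 (86.7%, against 53.5% of all genes). The same 13 had a counting interval above 1 (86.7%, against 38.0%). The median log2 ratio was 0.31, with a ratio of summed FPKM of 1.24. PPAN, the counterpart of a yeast factor of early large subunit particles, had the highest ratio at 1.46, from FPKM values of 35.1 and 51.4. NIP7 had a ratio of 1.38, GNL3, the nucleolar GTPase nucleostemin, 1.34, and MRTO4, a relative of the stalk protein P0, 1.34. NOC2L had the highest FPKM of the group with DMSO, 54.0, and 69.7 with FIN56, a ratio of 1.29 with an interval of 1.257 to 1.33.

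The PeBoW complex, which is needed to mature the 5.8S and 28S ribosomal RNAs, consists of PES1, BOP1 and WDR12. PES1 had an FPKM of 33.4 and 41.3, a ratio of 1.24. WDR12 had an FPKM of 53.7 and 63.1, a ratio of 1.18. BOP1 had an FPKM of 34.5 and 33.5, a ratio of 0.971. Its count ratio was 0.935, and the counting interval of 0.8997 to 0.972 lay below 1 and apart from those of both partners.

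RRP1 and RRP1B are paralogs that differ in level and in ratio. RRP1 had the lowest ratio of the group at 0.971, from FPKM values of 10.2 and 9.92, whereas its count ratio was 1.07 with an interval of 0.995 to 1.15. RRP1B had an FPKM of 16.1 and 19.2, a ratio of 1.19 by FPKM and by counts. The direction of RRP1 therefore depends on the measure. The other members of the group, WDR74, RRS1, NOC3L, the methyltransferase NOP2 and NOP16, had ratios between 1.11 and 1.32.

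**Figure D2:**
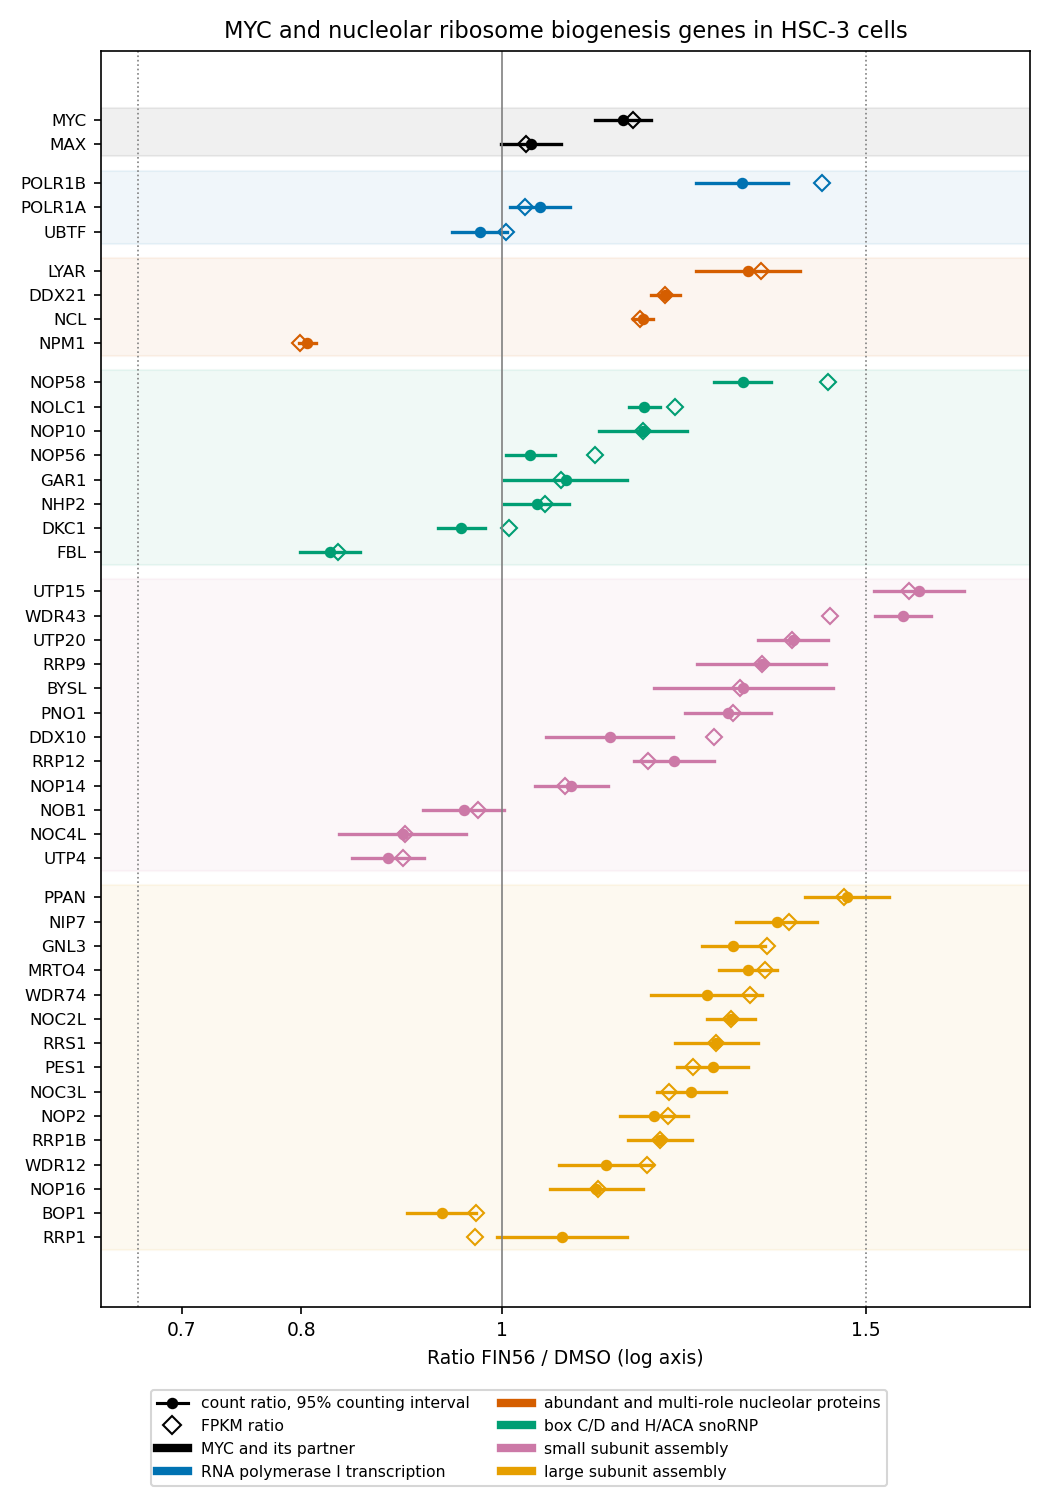
Ratio of FIN56 over DMSO for each of the 44 genes on a log axis, in 6 role groups. Filled points are count ratios with their 95% counting interval, open diamonds are FPKM ratios, the solid line marks 1 and the dotted lines 1.5 and 1/1.5. Most genes lie right of 1, NPM1 and FBL lie furthest left, and UTP15 has both of its ratios beyond 1.5.

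FPKM and count ratios part where the effective gene length differs between libraries, which RSEM sets from the mix of transcripts it finds. For 32 of the 44 genes the effective lengths of the libraries were within 3% of each other, as they were for 55.8% of all genes. The largest departures were RRP1, whose effective length was 1992 bases with DMSO and 2195 with FIN56 (a ratio of 1.10), WDR43 (1.09), DDX10 (0.890), NOP58 (0.910), POLR1B (0.915) and NOP56 (0.930). RRP1 alone lay outside the central range of all genes, from 0.867 at the 5th to 1.09 at the 95th percentile. By counts WDR43 would join UTP15 above 1.5, while NOP58 and POLR1B would stand at 1.31 each. Whether the use of transcripts changed cannot be read from values per gene.

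**Figure D3:**
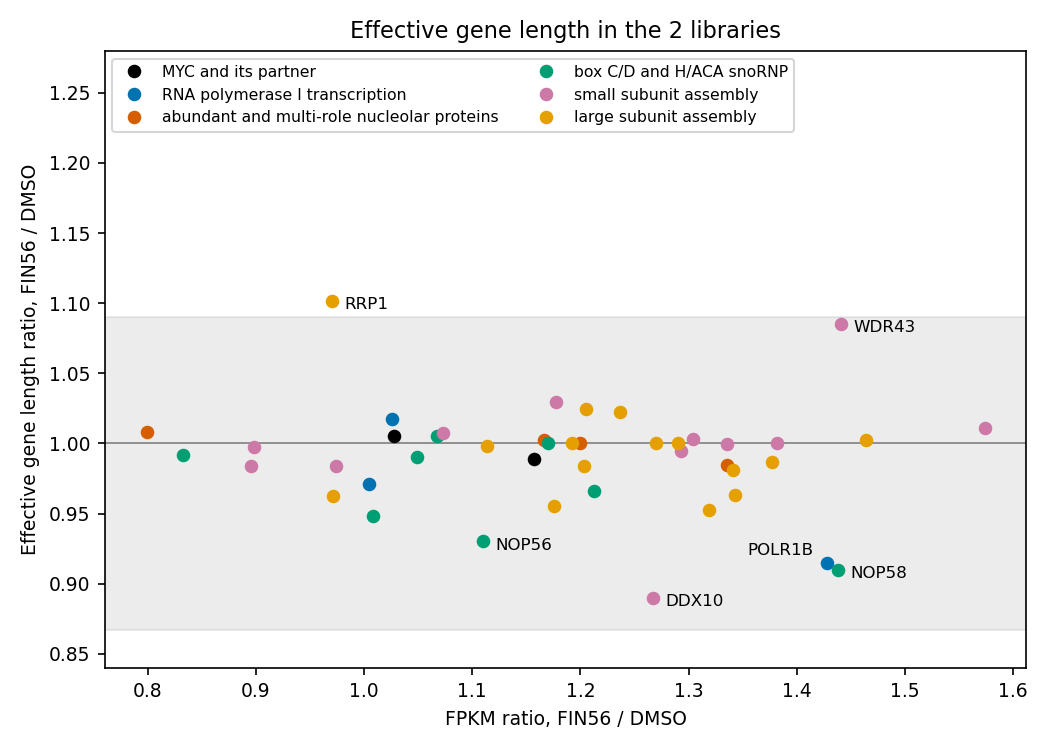
Ratio of effective gene length (y, FIN56 over DMSO) against FPKM ratio (x) for the 44 genes, coloured by role, with the grey band spanning the 5th to 95th percentile of all genes. Most points lie near 1 on the y axis, RRP1 lies above the band, and DDX10, NOP58 and POLR1B lie lowest.

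The same pathway was read in 107 assembly genes outside the 44. This list too was chosen with earlier results of these data known, so it gives no independent support. Of the 107, 80 had a ratio above 1 (74.8%, against 53.5% of all genes). The threshold of 1.5 was reached by 9 (8.41%, against 3.87%), and 2 were at 1/1.5 or less (1.87%, against 6.77%). By counts 6 of the 107 reached 1.5 (5.61%, against 3.25% of all genes) and 1 was at 1/1.5 or less (0.935%, against 7.11%). The median log2 FPKM ratio of the 107 was 0.23. Among 46 other small subunit genes, RIOK2, a kinase of late particles, had the highest ratio at 1.62, from FPKM values of 23.7 and 38.5, and stood at 1.4998 by counts. MPHOSPH10 and KRR1 were the other 2 at 1.5 or more, and by counts the interval of KRR1 ran only from 1.23 to 1.31. EMG1, a pseudouridine methyltransferase, had the lowest ratio at 0.581, from FPKM values of 77.2 and 44.9. Its count ratio was 0.707 with an interval of 0.676 to 0.738, not past the threshold. DIMT1, the 18S dimethyltransferase, followed at 0.598, and was past it by counts as well.

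Among 43 other large subunit genes, CEBPZ had the highest ratio at 1.62, from FPKM values of 25.2 and 40.9. BRIX1 and the GTPase GNL2 also reached 1.5. NOP53 had the lowest ratio, 0.689, which was not past the threshold. In this list 30 of 43 genes were above 1 (69.8%, against 53.5% of all genes), and the ratios ran from 0.689 to 1.62. The median log2 ratio was 0.26, against 0.31 in the 15 members of the large subunit group. For the 46 other small subunit genes it was 0.20, against 0.36 in the 12 members of the small subunit group.

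MYC targets outside the ribosome had a median close to that of all genes. The list held 30 genes, among them enzymes of nucleotide and polyamine synthesis, chaperones and translation factors. Of these, 18 had a ratio above 1 (60.0%, against 53.5% of all genes). The list had 0 genes at 1.5 or more (against 3.87% of all genes) and 0 at 1/1.5 or less (against 6.77%). The median log2 ratio was 0.03, equal to that of all genes at 2 decimals. SHMT2, the mitochondrial serine hydroxymethyltransferase, had the lowest ratio at 0.790, from FPKM values of 150 and 119. EIF2S1, a subunit of initiation factor eIF2, had the highest at 1.33, from FPKM values of 238 and 316. Of 6 genes that MYC is known to repress, 3 were above 1, with GADD45A highest at 1.23 and NDRG1 lowest at 0.934. The lists were read side by side, and the difference between them was not tested.

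**Figure D4:**
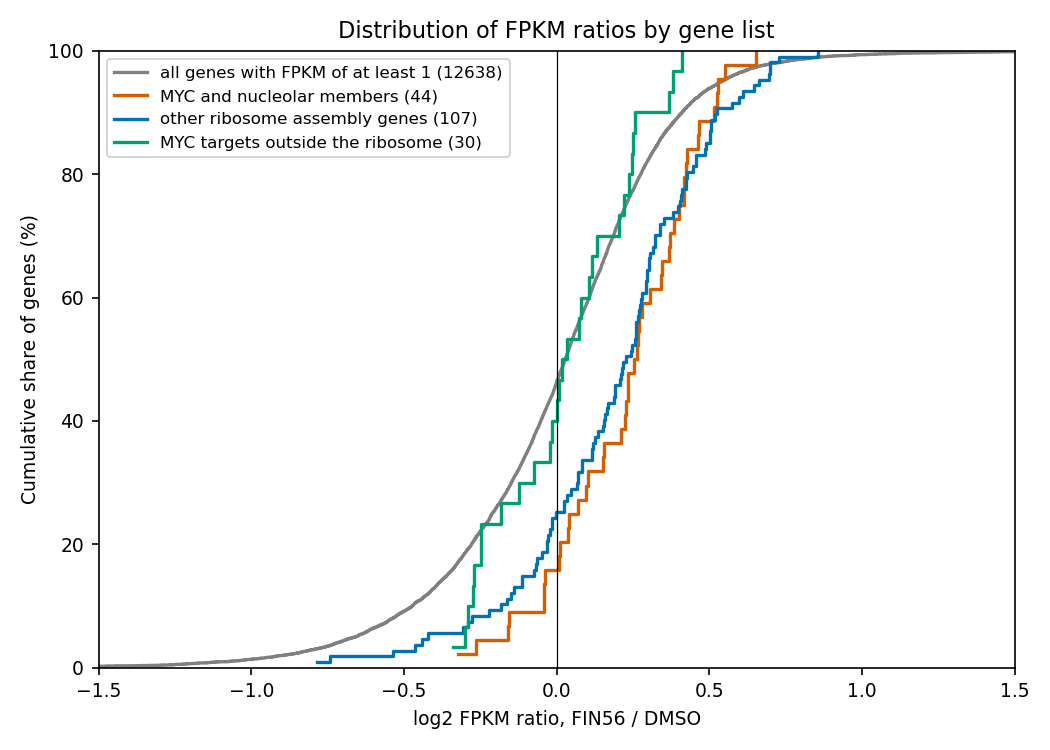
Cumulative share of genes (y, percent) by log2 FPKM ratio (x, FIN56 over DMSO) for all genes whose FPKM reached 1 in each library, the 44 genes, 107 other ribosome assembly genes and 30 MYC targets outside the ribosome. The curves of the 44 and the 107 genes lie right of that of all genes around their medians of 0.26 and 0.23, while the curve of MYC targets crosses it near 0.

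The promoters of the members were searched for the E-box CACGTG, the palindrome that MYC and MAX bind as a pair, which reads the same on both strands. RefSeq windows from 250 bases before to 50 after each start (GRCh38.p14) were matched for 37 members. The E-box was present in a window of 17 of these (45.9%), against 12.7% of the 9306 genes with an FPKM above the minimum that were matched and 8.77% of all 27305 genes with a window. Counted by window, 36.2% of 47 member windows held it, against 9.39% of 13572. Of the 18 E-boxes, 17 began within 70 bases of the start. Matches are letters in a window, not measured sites.

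The E-box did not mark the higher members alone. The 17 genes with it had a median ratio of 1.24, with 15 above 1, and the 20 without it a median ratio of 1.11, with 16 above 1. The sequences around it are shown for the 4 genes with the highest ratios and the 2 with ratios below 1, 30 bases each, with the E-box in capitals. WDR43 (chr2:28894658-28894687, plus strand), GNL3 (chr3:52686026-52686055, plus), MRTO4 (chr1:19251807-19251836, plus) and FBL (chr19:39846356-39846385, minus) carried it 4, 7, 15 and 7 bases after the start. UTP20 (chr12:101280083-101280112, plus) and UTP4 (chr16:69132621-69132650, plus) carried it 10 and 16 bases before the start.
WDR43: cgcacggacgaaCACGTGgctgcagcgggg
UTP20: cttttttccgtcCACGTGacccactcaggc
GNL3: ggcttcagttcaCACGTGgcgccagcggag
MRTO4: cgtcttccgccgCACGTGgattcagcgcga
UTP4: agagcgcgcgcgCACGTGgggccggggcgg
FBL: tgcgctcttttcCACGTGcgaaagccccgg

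WDR43 with a ratio of 1.44 and FBL with 0.833 thus both held the same 6 letters at nearly the same distance from the start, and UTP15, the called gene, held none in its window.

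Some members also carry snoRNA genes in their own bodies, which makes 1 transcript the source of a nucleolar protein and of guide RNAs. By GENCODE release 44, 7 of the 44 genes hold 25 snoRNA genes on the same strand: NCL, NOP58, NOP56, DKC1, WDR43, PPAN and GNL3. In these mRNA libraries 3 of the 25 had any expected count, 2 counts at most, so the snoRNAs themselves were not measured. The 7 hosts had FPKM ratios between 1.01 and 1.46 with a median of 1.34, and the other 37 members a median of 1.19. DKC1, the lowest host, was below 1 by counts.

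Shared reads limit part of these values. Expected counts were whole in both libraries for 27 of the 44 genes and not for 17, among them NPM1, UTP15, NOP58 and PPAN. PPAN overlaps the readthrough gene PPAN-P2RY11, to which 31.9 and 32.6 counts were assigned, beside 2925 and 4469 for PPAN. The library kit marks strand, and the strand setting of the counting is not known, so genes with an expressed antisense neighbour are less certain. NOP14 lies opposite NOP14-AS1, which had 1502 and 1774 counts, and UTP4 overlaps CHTF8, which had 5116 and 3306. UTP4 also overlaps SNTB2 on the same strand, with 2577 and 3051 counts. Other members with an expressed antisense overlap include GNL3 (PBRM1, 4665 and 4749), NOP16 (HIGD2A, 3451 and 2150) and NIP7 (COG8, 1460 and 1586). With whole-count members only, the median log2 ratio was 0.26, as over all 44.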

How the data were processed

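The 2 libraries of HSC-3 cells were taken as groups from the treatment given in the labels. The methods of the study describe tumor RNA-seq, and its steps were taken to hold for these libraries as well. By those methods and the submitters' processing notes, reads passed AfterQC and FastQC 0.11.7, were aligned with STAR 2.6.1a to GRCh38 (annotation of Ensembl release 94), and were quantified with RSEM 1.3.1. The strand setting of the counting is not given in the sources used here. The authors deposited expected counts without normalization, in which RSEM splits a read among the genes it matches. The FPKM deposited by the authors are scaled by library size and effective gene length, with 2 decimals. The TPM deposited by the authors sum to the same total in both libraries. The authors also deposited rlog values, which DESeq2 1.26.0 puts on a log2 scale.

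Ratios of FPKM (FIN56 over DMSO) were called at 1.5, the cut the study states for higher genes, and at 1/1.5, its mirror image chosen here, among genes whose FPKM reached 1 in each library. Intervals are exact Clopper-Pearson intervals (95%) of the FIN56 share of the rounded expected counts, scaled by library totals. They address counting error only. Without molecular identifiers reads cannot be taken as separate molecules, so the intervals may be too narrow even for that. The totals of 70184517 and 73062209 expected counts put the interval of NPM1 at 0.798 to 0.813 and that of BYSL, the member with the fewest counts, at 1.18 to 1.45. All 44 members were accounted for. MYC and MAX, each called member, and in each role group the genes with the highest FPKM and the highest and lowest ratio were given in full. From each other list the highest and the lowest ratio were named. The members, role groups and other lists were chosen with earlier results of these data known. Alternatives were TPM, library totals, edgeR 4.0.16 TMM factors, DESeq2 1.42.0 size factors, rlog values, centring on the median, pseudocounts of 0.1 and 1 FPKM, a threshold of 2, a looser one (25% higher or 20% lower), and other filters. Positions came from GENCODE release 44 and promoters from RefSeq (GRCh38.p14). Python 3.11.15, numpy 2.4.6, scipy 1.17.1, pandas 2.3.3, matplotlib 3.10.9 and R 4.3.3 were used.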

Additional observations from a re-analysis of the deposited data

How the results depend on the processing

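No paired analysis was possible because there were no replicates in either condition, and for the same reason no library could be left out. The median log2 ratio of the 44 genes was 0.26 and stayed between 0.21 and 0.29 under every alternative but the rlog values, which gave 0.12 and shrink differences by construction. The count of 1 gene at 1.5 or more became 2 with expected counts scaled by library totals and 2 with TMM factors (UTP15 and WDR43), 3 with DESeq2 size factors (also PPAN), and 0 with rlog values. Centring for GC content and transcript length, chosen after seeing the data, also gave 1 gene, PPAN at 1.55 in place of UTP15. Counts scaled by library totals, applied to the other assembly genes after seeing the data, gave 1 higher and 1 lower gene among the 46 of the small subunit, in place of 3 and 2, and 6 and 1 among all 107, in place of 9 and 2. A threshold of 2 left 0 higher genes. A looser threshold (25% higher or 20% lower) gave 17 higher genes and 1 lower gene. Under 9 scalings and pseudocounts 40 of the 44 genes stayed on their side of 1, 35 above and 5 below, and BOP1, DKC1, RRP1 and UBTF crossed it under at least 1. The scalings moved the median of all genes by less than 0.1 on the log2 scale. Counting intervals above 1 numbered 34 with TMM factors and 36 with DESeq2 size factors. Each of the 44 genes had at least 685 expected counts with DMSO and 933 with FIN56, and the spread between cultures is unknown.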
